A study of Mus musculus with 5 samples.

Results

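The 10 genes described here encode the NRF2 sensor system and enzymes and exporters that dispose of electrophiles: Nfe2l2, Keap1, Sqstm1, Nqo1, Cbr1, Ephx1, Esd, Ugdh, Abcc1 and Abcc5. They were listed by name for their known roles, and all 10 were found among the 49246 genes that had a value in every library. All 10 also passed the filter of a mean of at least 1 FPKM (fragments per kilobase of transcript per 1000000 mapped fragments), which kept 10770 genes for testing. RNA came from bone marrow-derived macrophages of wild type C57BL/6 mice, differentiated for 6 days with CSF1 or with L929-conditioned supernatant; 96% of such cells carried F4/80 and CD11b, per the labels. Both groups received 10 ng/ml of IL-4 for 24 h; 3 libraries had been pre-treated with 30 µM CBR-5884, which blocks PHGDH, the first enzyme of serine synthesis (replicates 3, 4 and 5), and 2 with solvent (replicates 3 and 5). No label says which of the medium supplements a sample had, or whether replicates came from separate mice or cultures, so p-values measure only the spread between these libraries, which may be technical.

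NRF2, encoded by Nfe2l2, is a transcription factor that KEAP1 holds in the cytoplasm and delivers to a CUL3 ubiquitin ligase for degradation. Electrophiles and oxidants modify cysteines of KEAP1, NRF2 then escapes degradation, enters the nucleus with a small MAF partner and binds antioxidant response elements in the genes of detoxifying enzymes. NRF2 is controlled largely at the protein level, so the mRNA of Nfe2l2 and Keap1 does not report its activity, whereas target mRNAs such as Nqo1 are widely used for that purpose. In macrophages the system limits oxidant damage and restrains inflammatory gene expression.

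The 8 macrophage marker genes summed to 9743 to 13078 FPKM with CBR-5884 and 11011 to 13092 FPKM with solvent. Most of that sum was Lyz2, at 10241, 6964 and 8099 FPKM with CBR-5884 and 10378 and 8456 FPKM with solvent. The lowest of the 8 was Fcgr1, at 11.6, 6.85 and 9.65 FPKM with CBR-5884 and 13.3 and 12.5 FPKM with solvent. The 6 T, NK and B cell markers summed to at most 0.116 FPKM with CBR-5884 and 0.0968 FPKM with solvent, with Cd3d, Cd3e and Ncr1 listed at 0 throughout. The 4 monocyte markers had a lower sum with CBR-5884, 3.98 to 4.63 FPKM against 8.41 to 9.53 FPKM with solvent. That sum rested on 1 gene, the chemokine receptor gene Ccr2, at 3.45, 3.71 and 3.54 FPKM with CBR-5884 and 7.66 and 8.19 FPKM with solvent; the other 3 had means below 1 FPKM. The 5 fibroblast and stromal markers summed to 11.1 to 18.2 FPKM with CBR-5884 and 18.5 to 19.5 FPKM with solvent. The 7 neutrophil and progenitor markers summed to 10.4 to 13.4 FPKM with CBR-5884 and 10.5 to 21.5 FPKM with solvent, with Ly6g listed at 0 throughout. The 5 dendritic cell markers summed to 0.880 to 1.18 FPKM with CBR-5884 and 1.36 to 2.06 FPKM with solvent. The 4 endothelial markers, mostly Vwf, summed to 28.6 to 31.3 FPKM with CBR-5884 and 29.9 to 35.5 FPKM with solvent. The part of these differences in the values below was not tested. In bulk RNA, fewer cells of a type and less RNA per cell cannot be told apart. The files imply a depth between 30230000 and 30700000 fragments with CBR-5884, and between 28310000 and 28850000 with solvent.

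None of the 10 genes passed the test across all genes (limma on log2(FPKM + 1), Benjamini-Hochberg adjusted p below 0.05), a threshold that 0.223% of all genes tested passed (0.0464% higher and 0.176% lower). Nqo1, Esd, Ugdh, Sqstm1 and Cbr1, which are 4 enzymes and an autophagy receptor, were higher in all 3 CBR-5884 libraries than in both solvent libraries. The values of Nfe2l2, Keap1, Ephx1, Abcc1 and Abcc5 overlapped between the groups. Such complete separation upward was seen in 5 of the 10 genes and in 16.6% of all genes tested, and separation downward in 0 of the 10 genes and in 24.9% of all genes. At an unadjusted limma p below 0.05, 4 of the 10 genes were higher and 0 lower, against 7.24% and 12.4% of all genes. The balance over all genes moved with the scaling: 780 genes were higher and 1334 lower on FPKM as deposited, 1135 and 949 on the TPM scale, 1091 and 1003 with median ratios, and 1163 and 945 after quantile normalization. A log2 fold change above 0 was found in 7 of the 10 genes and in 44.3% of all genes tested, and the median was 0.19 over the 10 genes and -0.03 over all genes. With reference transcripts only, 5 of the 10 genes were above 0 and their median was 0.09; with the most abundant reference transcript of each gene, 5 were above 0 and the median was -0.00094. Since the genes were chosen with earlier results of these data known, these shares describe the list and do not test it.

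**Figure D1:**
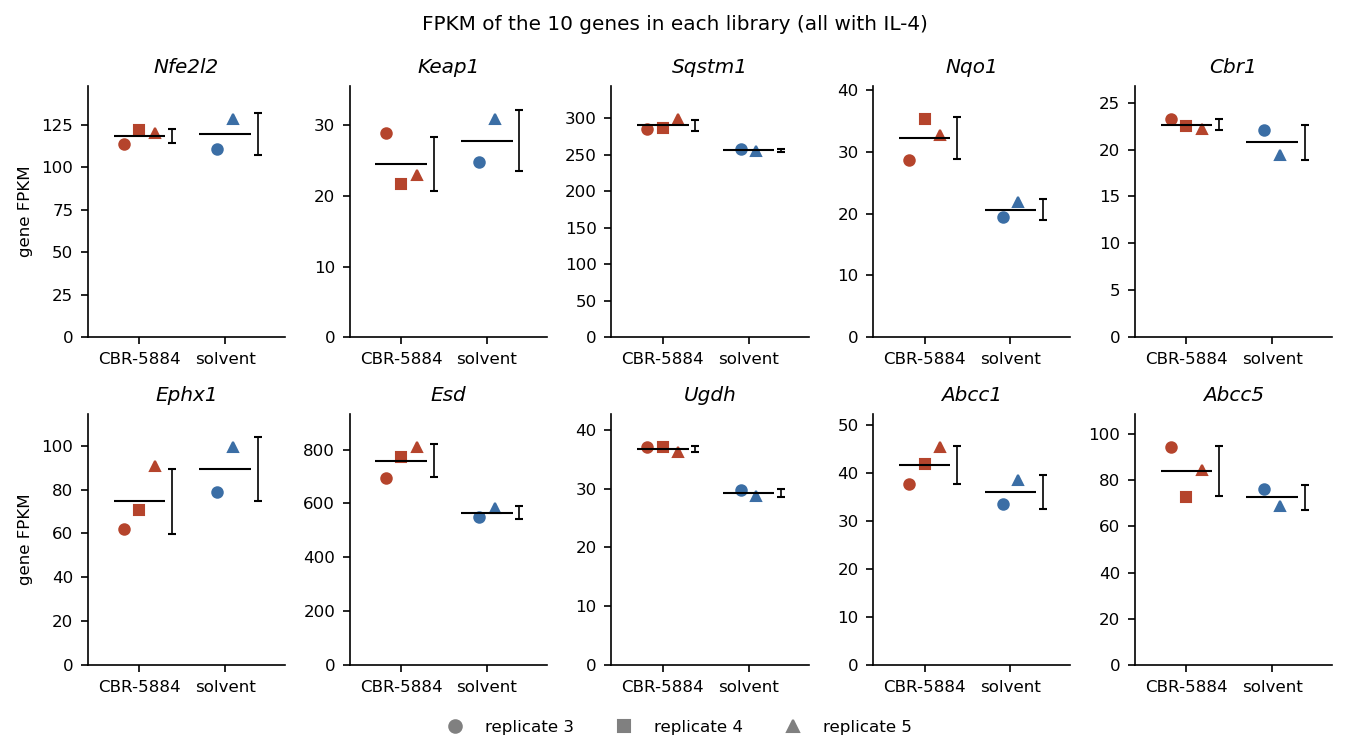
Gene FPKM of the 10 genes in each library, with CBR-5884 on the left of each panel and solvent on the right; horizontal lines are group means, the bars beside them are ± 1 SD (n = 3 and n = 2), and symbols give the replicate number. For Nqo1, Esd, Ugdh, Sqstm1 and Cbr1 all 3 CBR-5884 points lie above both solvent points.

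The genes of the sensor itself did not separate the groups. Nfe2l2 (chromosome 2, 75675513 to 75704641, minus strand, GRCm38) was at 114, 122 and 120 FPKM with CBR-5884, against 111 and 129 FPKM with solvent. Both solvent libraries lay outside the range of the CBR-5884 libraries, 1 below and 1 above it. The means were 119 ± 4.09 FPKM with CBR-5884 (SD, n = 3) and 120 ± 12.5 FPKM with solvent (SD, n = 2). The log2 fold change came to -0.01 (limma, SE 0.08, adjusted p = 0.948), with a 95% interval of -0.22 to 0.20; its sign turned positive with every scaling tried (0.03 on the TPM scale and with median ratios, 0.05 after quantile normalization).

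Keap1 (chromosome 9, 21229730 to 21239361, minus strand), the substrate adaptor that captures NRF2, was at 28.9, 21.7 and 23.0 FPKM with CBR-5884, against 24.8 and 31.0 FPKM with solvent. The groups overlapped, and replicate 3 was the highest of the CBR-5884 libraries. On the log2 scale the difference was -0.18 (limma, SE 0.16, adjusted p = 0.589), with a 95% interval of -0.62 to 0.26. The spread came with the way Cufflinks divided the locus among isoforms: a reference transcript of 2163 nt held 8.77, 3.77 and 5.25 FPKM with CBR-5884 and 7.77 and 11.9 FPKM with solvent. When each transcript was weighted by its length, giving fragments per 1000000 mapped fragments for the whole gene (scaled fragments below), Keap1 was at 66.3, 66.5 and 68.1 with CBR-5884 and at 70.9 in both solvent libraries. In scaled fragments the CBR-5884 libraries lay below the solvent libraries by a small amount (log2 fold change -0.08, limma adjusted p = 0.310). Exons of Keap1 overlap those of the antisense gene Gm16754 by 510 nt, and no source used here gives the strand setting, so reads from the pair cannot be told apart.

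The balance of the 2 mRNAs can be read within each library, as log2(FPKM + 1) of Nfe2l2 minus that of Keap1. Scaling between libraries enters this log2 ratio only through the added 1. The log2 ratio of Nfe2l2 to Keap1 was 1.94, 2.44 and 2.34 with CBR-5884 and 2.12 and 2.02 with solvent. The means were 2.24 ± 0.26 with CBR-5884 (SD, n = 3) and 2.07 ± 0.07 with solvent (SD, n = 2), and the difference of 0.17 was within the spread (exact permutation test, two-sided, p = 0.5). Without the added 1 the difference was 0.175. In scaled fragments the log2 ratio was 1.96, 2.04 and 2.11 with CBR-5884 and 1.94 and 2.03 with solvent. There the difference was smaller, at 0.06 (exact permutation test, two-sided, p = 0.4). The design has 10 arrangements and cannot go below an exact p of 0.1.

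Sqstm1 (chromosome 11, 50199366 to 50210827, minus strand) encodes p62, a receptor of selective autophagy that binds KEAP1 and removes it, and is itself an NRF2 target. It was at 286, 287 and 299 FPKM with CBR-5884, against 258 and 255 FPKM with solvent. All 3 CBR-5884 libraries were higher than both solvent libraries. The means were 291 ± 7.50 FPKM with CBR-5884 (SD, n = 3) and 256 ± 2.29 FPKM with solvent (SD, n = 2), a ratio of 1.13 (log2 fold change 0.18, SE 0.04, limma adjusted p = 0.152). All of its FPKM belonged to reference transcripts in all 5 libraries. Exons of Sqstm1 and of Mrnip on the opposite strand share 580 nt, so a part of the value is uncertain.

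Among the enzymes, Nqo1 showed the largest difference of the 10 genes. Nqo1 (chromosome 8, 107388225 to 107403206, minus strand) encodes the quinone reductase that converts quinones to hydroquinones in a single step and thereby avoids the reactive semiquinone. It was at 28.7, 35.4 and 32.7 FPKM with CBR-5884, against 19.4 and 21.9 FPKM with solvent. The groups were well apart: the lowest CBR-5884 library had a Cufflinks 95% interval of 27.0 to 30.3 FPKM and the highest solvent library 20.4 to 23.4 FPKM, both of which describe the estimate inside a single library. The means were 32.3 ± 3.37 FPKM with CBR-5884 (SD, n = 3) and 20.7 ± 1.71 FPKM with solvent (SD, n = 2), a ratio of 1.56. Its log2 fold change was 0.62 (limma, SE 0.11, adjusted p = 0.131), above that of 97.2% of all genes tested. The values rest on 1353, 1660 and 1561 implied fragments with CBR-5884 and on 871 and 961 with solvent, all assigned to 1 reference transcript of 1553 nt.

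Esd (chromosome 14, 74732297 to 74750765, plus strand) encodes S-formylglutathione hydrolase, the enzyme that completes the glutathione-dependent oxidation of formaldehyde. It was the most abundant of the 10 genes, at 693, 773 and 812 FPKM with CBR-5884, against 549 and 583 FPKM with solvent. Each CBR-5884 library exceeded each solvent library, and the means were 759 ± 60.3 FPKM with CBR-5884 (SD, n = 3) and 566 ± 23.8 FPKM with solvent (SD, n = 2), a ratio of 1.34. The fitted log2 fold change was 0.42 (limma, SE 0.08, adjusted p = 0.132). In CBR-5884 replicate 5 a shorter reference transcript of 809 nt held 153 FPKM of the total, which raised a sum of FPKM more than it raised the number of fragments. In scaled fragments the 3 CBR-5884 libraries were at 774, 863 and 859, against 613 and 651 with solvent.

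Ugdh (chromosome 5, 65413221 to 65435949, minus strand) encodes UDP-glucose dehydrogenase, which makes the UDP-glucuronate used for glucuronidation and for glycosaminoglycans. On FPKM it had the smallest p of the 10 genes, at 37.2, 37.1 and 36.3 FPKM with CBR-5884, against 29.8 and 28.8 FPKM with solvent. Replicates lay close together and the groups lay apart, with means of 36.8 ± 0.51 FPKM with CBR-5884 (SD, n = 3) and 29.3 ± 0.70 FPKM with solvent (SD, n = 2). The ratio was 1.26 (log2 fold change 0.32, SE 0.04, limma adjusted p = 0.101). In scaled fragments Ugdh was at 94.9, 86.7 and 92.5 with CBR-5884, against 75.9 and 73.4 with solvent. Replicates were less close on that scale, where Nqo1 and Esd had smaller p. Exons of Ugdh share 158 nt with Gm43552 on the same strand.

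Of the 9 genes with a promoter in the table used, Ugdh had the most matches to the core of the antioxidant response element, TGACNNNGC, in its promoter. RefSeq promoters (GRCm38.p6, 250 bases before to 50 after the annotated start, a window of 300 bases) were searched on both strands for all but Abcc1. Ugdh held 2 matches and Nfe2l2 1, and the other 7 windows held none. At least 1 match was held by 12.4% of the 32851 promoters in the table and by 14% of the 27025 genes they belong to. The share of promoters with 2 matches was not counted. None of the 3 matches overlapped the AP-1 motif TGACTCA. The stretch of the Ugdh window that lies before any annotated exon is shown because it holds the first match, at -132 to -124 from the start, in capitals (chr5:65435950-65436092, minus strand). The other 2 matches are shown with 10 bases on each side, read on the strand of the match, and both of these stretches touch an annotated exon. They are the one of Ugdh at -94 to -86 (chr5:65435918-65435946, plus strand) and the one of Nfe2l2 at -240 to -232 (chr2:75704885-75704913, minus strand). For Nfe2l2 the exon belongs to E030042O20Rik, and whether the match itself lies in it was not examined.
Ugdh, upstream stretch: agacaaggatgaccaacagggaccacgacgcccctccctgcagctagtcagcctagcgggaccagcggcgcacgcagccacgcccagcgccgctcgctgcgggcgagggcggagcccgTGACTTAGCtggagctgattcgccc
Ugdh, opposite strand: ccgaactgtaTGACCACGCcccttgagga
Nfe2l2: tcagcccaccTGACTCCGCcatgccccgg
The match is a description of the letters and no evidence of binding. Sites outside these windows were not searched, so a window without a match says nothing about sites elsewhere near that gene.

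Cbr1 (chromosome 16, 93605853 to 93610505, plus strand), a carbonyl reductase that turns reactive aldehydes and quinones into alcohols and hydroquinones, was at 23.3, 22.5 and 22.2 FPKM with CBR-5884, against 22.1 and 19.5 FPKM with solvent. The groups did not overlap, but CBR-5884 replicate 5 and solvent replicate 3 nearly met. Its fitted log2 fold change was 0.12 (limma, SE 0.07, adjusted p = 0.398), with a 95% interval of -0.06 to 0.31. In scaled fragments the gap was wider, with 28.8, 27.8 and 27.5 with CBR-5884 against 25.3 and 24.1 with solvent (log2 fold change 0.18, limma adjusted p = 0.139). Its paralog Cbr3, named after its values were seen, was at 40.6, 51.4 and 51.1 FPKM with CBR-5884, against 37.7 and 35.3 FPKM with solvent (limma adjusted p = 0.229). Cbr2, another carbonyl reductase, went the other way from a low level. It was at 0.752, 0.495 and 1.32 FPKM with CBR-5884, against 1.84 and 2.01 FPKM with solvent (log2 fold change -0.68, limma adjusted p = 0.226). Cbr4 overlapped between the groups (log2 fold change 0.14).

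Ephx1 (chromosome 1, 180976210 to 181020904, minus strand), the microsomal epoxide hydrolase, had a lower mean with CBR-5884, unlike the other enzymes among the 10 genes, and did not pass the test. It was at 61.9, 70.8 and 91.0 FPKM with CBR-5884, against 78.9 and 99.7 FPKM with solvent. The groups overlapped, and replicate 5 was the highest library in each group. The means were 74.6 ± 14.9 FPKM with CBR-5884 (SD, n = 3) and 89.3 ± 14.7 FPKM with solvent (SD, n = 2). This is a log2 fold change of -0.27 (limma, SE 0.20, adjusted p = 0.508), with a 95% interval of -0.80 to 0.27. Exons of Ephx1 share 72 nt with the pseudogene Gm36961 on the same strand.

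The exporters had positive fold changes inside their replicate spread. Abcc1 (chromosome 16, 14361558 to 14475737, plus strand), also called MRP1, pumps glutathione conjugates and leukotriene C4 out of cells. It was at 37.7, 41.8 and 45.5 FPKM with CBR-5884, against 33.5 and 38.5 FPKM with solvent, so that the lowest CBR-5884 library lay below the highest solvent library. Fitted over all genes, its log2 fold change was 0.20 (limma, SE 0.11, adjusted p = 0.374), with a 95% interval of -0.08 to 0.49.

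Abcc5 (chromosome 16, 20331303 to 20426394, minus strand), an exporter of cyclic nucleotides and other organic anions, was at 94.6, 72.8 and 84.7 FPKM with CBR-5884, against 76.4 and 68.6 FPKM with solvent. CBR-5884 replicate 4 lay between the solvent libraries and the other CBR-5884 libraries above both. Its log2 fold change came to 0.20 (limma, SE 0.13, adjusted p = 0.438), with a 95% interval of -0.14 to 0.55. In scaled fragments the groups no longer overlapped, at 298, 291 and 321 with CBR-5884, against 270.1 and 279.5 with solvent (log2 fold change 0.14, limma adjusted p = 0.198).

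**Figure D2:**
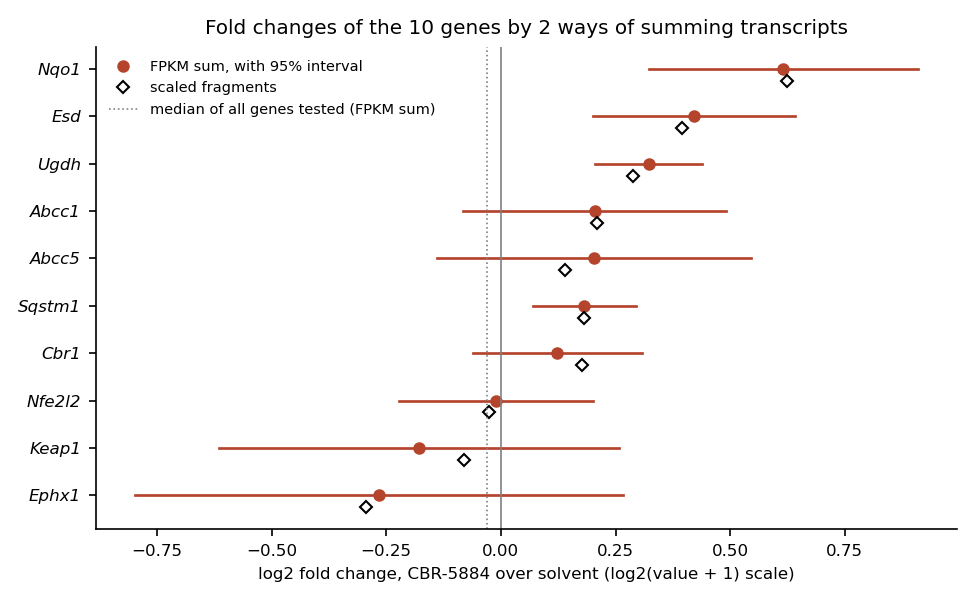
Log2 fold changes of the 10 genes (CBR-5884 over solvent); circles with lines are the FPKM sums with limma's 95% interval, diamonds the scaled fragments, and the dotted line the median of all genes tested at -0.03. The intervals of Nqo1, Esd, Ugdh and Sqstm1 lie above 0, those of the other 6 genes include 0, and Nqo1 has the highest value at 0.62.

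How the transcripts of a gene were summed decided part of these results. Transcripts that Cufflinks assembled held none of the FPKM of Nqo1, Sqstm1, Abcc1 and Esd in any library. For Nfe2l2 they held 78.3%, 79.9% and 0% of the FPKM with CBR-5884 and 0% and 83.2% with solvent, although the sums with them differed little. Reference transcripts alone would thus give Nfe2l2 24.8, 24.5 and 120 FPKM with CBR-5884 and 111 and 21.7 FPKM with solvent. Ugdh had 66.8% of its FPKM in an assembled transcript in CBR-5884 replicate 4 alone, and Cbr1 44.3% in solvent replicate 3 alone. For Abcc5 the assembled share was 70.0%, 78.8% and 100% with CBR-5884 and 62.4% and 68.9% with solvent. With reference transcripts alone the log2 fold changes turned to -0.18 for Ugdh and -1.72 for Abcc5.

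**Figure D3:**
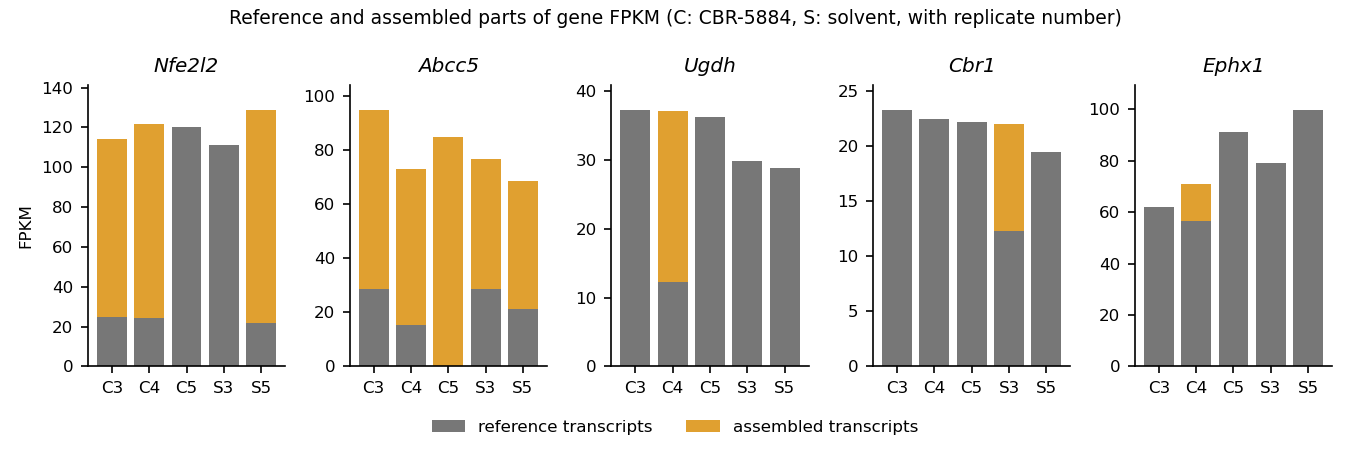
FPKM of 5 genes in each library, split into reference transcripts (grey) and transcripts assembled by Cufflinks (orange); C marks CBR-5884 and S solvent, with the replicate number. In Nfe2l2 the grey part alone falls to 21.7 to 24.8 FPKM in 3 libraries, while the full bars lie between 111 and 129 FPKM.

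A sum of FPKM also gives a short transcript as much weight as a long one. With scaled fragments, which were added as an alternative with the data in view, limma called 2 of the 10 genes, against 2.85% of all genes tested on that scale. Nqo1 rose (log2 fold change 0.62, limma adjusted p = 0.0390), at 44.5, 54.9 and 50.8 scaled fragments with CBR-5884 against 30.2 and 34.0 with solvent. Esd rose as well (log2 fold change 0.40, limma adjusted p = 0.0452). Ugdh, with a log2 fold change of 0.29, did not pass (limma adjusted p = 0.0559), nor did Sqstm1 with 0.18 (limma adjusted p = 0.0873). Neither call held once any 1 library was omitted, with an adjusted limma p of up to 0.239 for Nqo1 and 0.244 for Esd.

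In level the 10 genes covered a wide range, compared here on FPKM, which is per length. Esd led with a mean of 682 FPKM over the 5 libraries, followed by Sqstm1 with 277 and Nfe2l2 with 119, and these 3 did not overlap with each other or with the rest. Ephx1 and Abcc5 came next with means of 80.5 and 79.4 FPKM and overlapping ranges. Abcc1, Ugdh, Nqo1, Keap1 and Cbr1 had means of 39.4, 33.8, 27.6, 25.9 and 21.9 FPKM, and each overlapped in range with its neighbour in this order. Cbr1 was thus the lowest of the 10 genes and rested on 682 to 875 implied fragments per library.

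Around the 10 genes, the other known NRF2 targets were the list with the highest median. Of 39 listed, 34 were tested, 30 had a log2 fold change above 0, against 44.3% of all genes, and the median was 0.33; 1 rose and 0 fell over all genes tested. Complete separation upward was seen in 26 of the 34 and downward in 2, against 16.6% and 24.9% of all genes. The gene that rose was Gclm, the modifier subunit of glutamate-cysteine ligase, which starts glutathione synthesis, at 331, 345 and 329 FPKM with CBR-5884 against 224 and 212 FPKM with solvent (limma adjusted p = 0.0479); omitting any 1 library ended that call, with an adjusted limma p of 0.0825 to 0.188. The call was also lost with a pseudocount of 0.1 or 5, no filter, a mean of at least 5 FPKM, the most abundant reference transcript and no variance trend (limma adjusted p of 0.0532 to 0.0795), and with the replicate block (limma adjusted p = 0.331). The separation of Gclm is of the same size as that of Nqo1, with log2 fold changes of 0.62 each, and its replicates lie closer together. In scaled fragments 9 of 35 tested targets rose and 0 fell, against 0.965% of all genes called higher. Besides Gclm these were Gsta3, Cat, Me1, Gstm1, Prdx1, Slc7a11, Cd36 and Mgst1. Without solvent replicate 3 or solvent replicate 5 none of them passed on that scale, and without CBR-5884 replicate 3, 4 or 5 the numbers that rose were 1, 3 and 5.

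Partners and regulators of NRF2 had log2 fold changes on both sides of 0. Of 18 tested genes 8 lay above 0 on the log2 scale (median -0.01), near the 44.3% of all genes, and none passed. The shares above 0 in the lists that follow have the same 44.3% as their background. The median turned to 0.03 to 0.04 under the scaling alternatives. The genes with the smallest p were parts of the ligase that degrades NRF2 and kinases that act on it or on inflammatory signalling. Cul3, the cullin scaffold to which KEAP1 binds, was at 32.7, 33.0 and 32.6 FPKM with CBR-5884, against 27.0 and 28.5 FPKM with solvent (log2 fold change 0.23, limma adjusted p = 0.132). Rbx1, the RING subunit of that ligase, was at 25.3, 26.1 and 27.0 FPKM with CBR-5884, against 22.4 and 23.1 FPKM with solvent. Gsk3b, a kinase that marks NRF2 for a second route of degradation, was at 19.6, 19.4 and 20.9 FPKM with CBR-5884, against 16.1 and 17.2 FPKM with solvent. For each of these 3 genes, which were named for their small p, the groups did not overlap. Complete separation upward was seen in 6 of the 18 tested genes and downward in 1, against 16.6% and 24.9% of all genes. Ikbkb, a kinase of NF-kB signalling that KEAP1 can also bind, had a log2 fold change of 0.78 on FPKM but 0.03 in scaled fragments.

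The enzymes nearest in kind to those among the 10 genes also had values on both sides of 0. Of 25 tested carbonyl, quinone and epoxide enzymes 13 had a positive log2 fold change, and none passed. The median was 0.00, and -0.04 in scaled fragments and with reference transcripts only. Mgst2, a microsomal glutathione transferase, was at 6.09, 6.51 and 5.38 FPKM with CBR-5884, against 2.96 and 3.03 FPKM with solvent (limma adjusted p = 0.0858). Aldh1b1, a mitochondrial aldehyde dehydrogenase, was at 13.3, 14.4 and 15.5 FPKM with CBR-5884, against 20.1 and 20.4 FPKM with solvent, and was the 1 gene of the list called in scaled fragments (log2 fold change -0.49, limma adjusted p = 0.0373). Akr7a5 and Dcxr, reductases of aldehydes and of dicarbonyls, had log2 fold changes of -0.30 and -0.25, with the groups apart. Of the 25 tested genes, 6 were completely separated upward and 8 downward, against 16.6% and 24.9% of all genes.

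Next to Ugdh in its pathway, Ugp2 makes UDP-glucose, the substrate of UGDH. It was at 42.7, 45.6 and 44.1 FPKM with CBR-5884, against 36.2 and 36.6 FPKM with solvent (log2 fold change 0.27, limma adjusted p = 0.131), and it was called in scaled fragments (log2 fold change 0.28, limma adjusted p = 0.0443). Both genes were thus higher in each CBR-5884 library than in each solvent library. Over the 9 tested genes of glucuronate and UDP-sugar metabolism 6 lay above 0 on the log2 scale, with a median of 0.14 on FPKM and 0.04 in scaled fragments, and none passed on FPKM. With reference transcripts only, or the most abundant one, 3 of the 9 lay above 0 and the median turned to -0.04 and -0.05. Slc35d1 and Slc35b4, transporters of nucleotide sugars, had log2 fold changes of 0.27 and 0.14. On FPKM, 5 of the 9 tested genes were completely separated upward and 1 downward, against 16.6% and 24.9% of all genes.

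Most other exporters had log2 fold changes below 0, unlike Abcc1 and Abcc5. Of 7 tested genes of the ABCC family and other drug exporters 2 had a positive log2 fold change, and none passed. The median was -0.17 on FPKM, -0.09 in scaled fragments and -0.04 with reference transcripts only. Abcb4, Abcb6 and Abcc10 had log2 fold changes of -0.21, -0.17 and -0.18.

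Around Sqstm1, 10 of 19 tested selective autophagy genes lay above 0 on the log2 scale, and none passed. The median was 0.05, and turned to -0.0040 with reference transcripts only and -0.0072 with the most abundant one. Nbr1, a receptor related to p62, was at 43.5, 38.1 and 45.1 FPKM with CBR-5884, against 33.2 and 34.0 FPKM with solvent (log2 fold change 0.32, limma adjusted p = 0.177). Gabarapl2, a protein of the autophagosome membrane that such receptors bind, was at 30.7, 30.4 and 30.4 FPKM with CBR-5884, against 25.0 and 26.2 FPKM with solvent (log2 fold change 0.25, limma adjusted p = 0.132). The groups were apart for both. Tax1bp1, another receptor, and Atg12, a conjugation factor, had log2 fold changes of 0.18 and 0.25. These genes were named for their small p, and all of them were higher with CBR-5884. Over the 19 tested genes, 8 were completely separated upward and 3 downward, against 16.6% and 24.9% of all genes.

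Nqo1 is also induced by the aryl hydrocarbon receptor, so a list of the receptor, its partner and its targets was examined. Of 7 tested genes, which include Nqo1, Nfe2l2, Ahr and Arnt, 4 lay above 0 on the log2 scale (median 0.07), and none passed. Ahrr, the repressor that the receptor induces, was at 8.77, 9.36 and 9.34 FPKM with CBR-5884, against 10.5 and 9.86 FPKM with solvent (log2 fold change -0.14, limma adjusted p = 0.295). Ahr and its partner Arnt had log2 fold changes of 0.11 and -0.10, and both overlapped between the groups. The targets Cyp1b1 and Tiparp had log2 fold changes of 0.24 and 0.07, and both overlapped as well. Complete separation upward was seen in 1 of the 7, Nqo1 itself, and downward in 1, Ahrr. The shares over all genes were 16.6% and 24.9%.

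**Figure D4:**
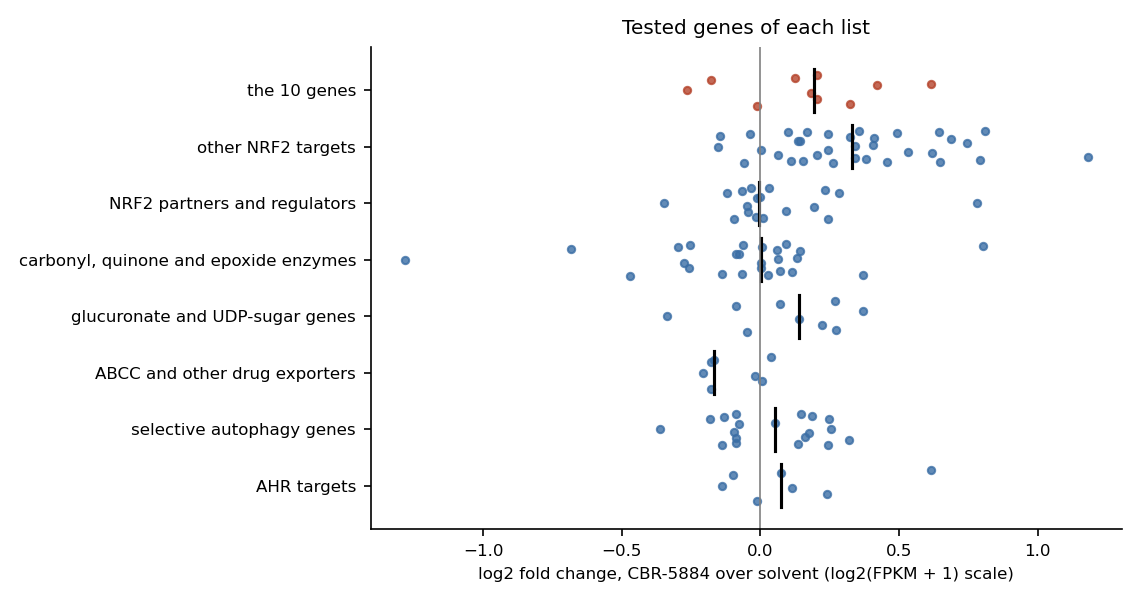
Log2 fold change (CBR-5884 over solvent) of each tested gene of the 10 genes (red) and of the lists around them (blue); black bars are medians. The other NRF2 targets have a median of 0.33 and the 10 genes 0.19, while the partners and regulators of NRF2 centre at -0.01.

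The genes whose profile over the 5 libraries was nearest to that of Nqo1 were Cd36, Arhgap5, Aasdh, Akr1b8 and B4galt7, with root mean square distances of 0.02, 0.03, 0.04, 0.05 and 0.06 on the centred log2(FPKM + 1) scale. Cd36, a scavenger receptor for oxidised lipids, was at 1487, 1763 and 1648 FPKM with CBR-5884, against 987 and 1100.1 FPKM with solvent. Its lowest library in each group was replicate 3, as for Nqo1. Akr1b8, an aldo-keto reductase, was at 29.7, 34.6 and 33.2 FPKM with CBR-5884, against 20.4 and 24.0 FPKM with solvent. With 5 libraries in 2 groups, genes with a group difference of similar size are near each other on this measure.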

How the data were processed

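Per the labels' protocols, total RNA was converted to libraries with a strand-keeping kit and read from 1 end over 75 bp. The submitters' processing notes name Bowtie2, TopHat2 and Cufflinks and build mm10 (GRCm38); no source used here gives versions, annotation or strand setting. The deposited values are FPKM per transcript with a 95% interval and a coverage, estimated by the authors with Cufflinks, per the file contents; no normalization between libraries is recorded.

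GENCODE release M21 placed 99.5% of reference transcripts in genes. Assembled transcripts of 200 nt or more joined the same-strand gene covering at least 50% of their exonic bases. Gene FPKM is the sum of both kinds; 95 of 49341 genes had no transcript in some library. Transcripts left out held 64.0% to 70.3% of summed FPKM but 8.55% to 10.2% of covered bases. Depth was inferred from coverage over FPKM. Scaled fragments are FPKM times length in kilobases, and implied fragments multiply these by depth; neither is a count of reads, and the effective length Cufflinks used is not recorded.

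CBR-5884 was compared with solvent by limma 3.58.1 (R 4.3.3; variance trend, two-sided) on log2(FPKM + 1) over genes with a mean of at least 1 FPKM, with Benjamini-Hochberg adjustment and a threshold of 0.05. This scale understates changes of low genes. Named genes are the 10 genes, per list those called and the 4 with the smallest p, and the 5 nearest to Nqo1; Cbr3 is an exception, and 2 genes that the rule names are not reported here. Members, lists and tests were chosen with earlier results of these data known. Pseudocounts, filters, scalings, transcript sets, variance settings, a replicate block and leaving out each library were tried as alternatives.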

Additional observations from a re-analysis of the deposited data

How the results depend on the processing

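The results were recomputed in 18 other settings. Of 180 values of the 10 genes, 169 kept direction and side of the threshold. Nfe2l2 changed sign with the TPM scale (0.0332), median ratios (0.0282), quantile normalization (0.0532) and without 1 library (-0.116 to 0.0946). With reference transcripts only and with the most abundant one, Abcc5 turned to -1.72 and -1.54 and Ugdh to -0.18 in both; the ratio of Nfe2l2 to Keap1 turned to -0.22 with reference transcripts only. These settings drop the assembled part of the value. The sign also turned in these 2 settings for Ikbkb (-0.0764), Slc35b4 (-0.0461), Abcb4 (0.21), Atg12 (-0.0394), Ahrr (0.10), Akr1b8 (-1.11) and Aasdh (-0.45 and -0.92), with reference transcripts only for Mgst1 (-0.29), and with the most abundant one for Nbr1 (-0.16).

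None of the 10 genes was called in any planned setting, and 2 were in scaled fragments (0 on that scale without any 1 library). Over all genes 24 were called, and 19 to 89 without 1 library. The number was 16 with a pseudocount of 0.1 or 5, 38 without a filter, 9 at a mean of at least 5 FPKM, 39 with reference transcripts only, 32 with the most abundant one, 325 in scaled fragments and 3 with the replicate block. The ratio of Nfe2l2 to Keap1 differed by 0.07 to 0.32 without 1 library. Same-numbered libraries share no stated origin; the differences between replicates 3 and 5 of both groups correlated weakly across genes (r = 0.0875). With the replicate block Nqo1 had a log2 fold change of 0.55 (limma adjusted p = 0.331). With 3 and 2 libraries, small differences in these genes cannot be resolved.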
